A study of Mus musculus with 8 samples.

Results

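The integrated stress response and its ATF4 targets were followed as a list of 34 genes, given by name, among the 26894 gene symbols on the array. The 34 genes had 57 of the 56605 probes, and each gene was represented by its brightest probe, the probe with the highest mean over the 8 normalized columns. All 34 chosen probes were well above background on all 8 arrays, so that no gene of the list was lost to a filter. The samples were isolated islets of male mice, 4 from βUCP2Tg mice and 4 from wild-type (WT) littermates, all cultured for 8 hours at 200 mg/dL glucose before RNA extraction. βUCP2Tg mice carry mouse *Ucp2*, which encodes the mitochondrial uncoupling protein 2, behind a rat insulin promoter, and both groups share the C57BL6/J background to which the line was backcrossed. The promoter directs the transgene to β-cells while the arrays measured whole islets, and the study's methods give the age of the mice as a range and not per sample. The sources used here do not settle whether a sample pooled several mice, and every n, SD and p counts samples. The question was whether islets that overexpress UCP2 carry more or less of the mRNAs of this response.

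In the integrated stress response, kinases that sense amino acid shortage, unfolded protein in the endoplasmic reticulum (ER), viral RNA or haem shortage phosphorylate the translation factor eIF2. General translation then slows, while the mRNA of the transcription factor ATF4 is translated more. ATF4 acts with C/EBP partners on genes for amino acid synthesis, amino acid transport and redox balance, and on genes that switch the response off or, when it lasts, favour cell death. β-cells, which make large amounts of proinsulin, are known to depend on the PERK branch of the response.

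Many ATF4 targets carry a composite C/EBP-ATF element, and the letters TGATGNAA of such elements were looked for, on both strands, in the window from 250 bases before to 50 bases after each gene's start in RefSeq (mouse GRCm38.p6). The table held at least 1 such window for 27 of the 34 genes, and 8 of these 27 (29.6%) contained the letters, against 4.51% of all 27025 genes. Counted by window, since some genes have several starts, the letters were in 24.2% of the 33 windows of the list and in 3.97% of all 32851 windows. *Slc7a5*, *Aldh1l2*, *Ppp1r15b*, *Eif4ebp1*, *Slc7a3*, *Cth* and *Slc1a5* were not in the table. A match is a description of these letters, not a site in use, and a window without one says nothing of ATF4. The 6 genes whose match lay before the start are shown because they include 4 genes (*Nupr1*, *Fgf21*, *Chac1* and *Vldlr*) whose groups did not overlap in the comparison below. None of these 4 was called by its chosen probe. Capitals mark the match in each stretch, which is written 5′ to 3′ on the gene's own strand and ends before the start of the gene.
Nupr1, minus strand, chr7:126625547-126625606: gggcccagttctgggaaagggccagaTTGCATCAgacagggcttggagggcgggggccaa
Fgf21, minus strand, chr7:45615596-45615655: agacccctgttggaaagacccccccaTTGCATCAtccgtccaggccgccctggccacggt
Chac1, plus strand, chr2:119351023-119351082: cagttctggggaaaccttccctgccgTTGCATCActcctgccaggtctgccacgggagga
Vldlr, plus strand, chr19:27216794-27216853: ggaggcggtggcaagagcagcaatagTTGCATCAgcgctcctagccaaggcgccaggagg
Slc7a11, minus strand, chr3:50443646-50443705: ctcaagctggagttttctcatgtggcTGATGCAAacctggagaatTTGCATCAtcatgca
Asns, minus strand, chr6:7693210-7693258: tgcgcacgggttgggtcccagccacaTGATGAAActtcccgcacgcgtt
The *Slc7a11* stretch held the letters in both orientations, facing each other, and in *Nupr1*, *Fgf21*, *Chac1* and *Vldlr* they stood in the reverse orientation as TTGCATCA. The matches of *Trib3* and *Slc1a4* lay after the start or across it.

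Throughout, a value is the log2 signal relative to the 75th percentile of its array, a difference is βUCP2Tg minus WT on the log2 scale, and the 4 values of a group are given in the order of replicates 1 to 4. Before scaling, this percentile lay between 8.996 and 9.161 (log2) on the βUCP2Tg arrays and between 8.781 and 8.894 on the WT arrays, a mean difference of 0.25 that the scaling removed. All 8 arrays shared a slide on which each row carried 1 genotype, so that row and genotype cannot be told apart. *Ucp2* itself was 6.24 ± 0.18 (SE) higher in βUCP2Tg islets (adjusted p = 9.32e-06), which fits the labels of all 8 arrays. *Ins1* and *Ins2* differed by -0.16 and -0.18 (adjusted p = 0.434 and 0.315). The arrays βUCP2Tg 4 and WT 1 stood apart from the rest of their groups: βUCP2Tg 4 lay farthest from its group's median in 45.6% of all probes and in 23 of the 34 genes, and WT 1 in 40.2% of all probes and in 12 of the 34 genes. Within the list, the WT array most often farthest from its group's median was WT 2, in 16 of the 34 genes, beside 20.9% of all probes.

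By its chosen probe, no gene of the list was called different between βUCP2Tg and WT islets by limma. A call needed a fold change over 1.5 and an adjusted p under 0.05. The same comparison called 0.41% of all 35363 probes tested, 0.206% as higher and 0.204% as lower in βUCP2Tg islets. The closest was *Nupr1*, 3.25-fold higher in βUCP2Tg islets, with an adjusted p of 0.0517. A second, dimmer *Nupr1* probe was called in the other direction, as lower, with an adjusted p of 0.0456. At an unadjusted p under 0.05 there were 11 genes of the 34 (32.4%), 3 higher and 8 lower, beside 25.2% of all probes, of which 9.99% were higher and 15.2% lower. In 12 of the 34 genes (35.3%) the arrays of both groups did not overlap, against 12.4% of all probes. *Nupr1*, *Slc7a3* and *Fgf21* were the 3 of these that were higher in βUCP2Tg islets (5.25% of all probes), and *Atf4*, *Ddit3*, *Cebpb*, *Ppp1r15a*, *Chac1*, *Vldlr*, *Slc7a1*, *Slc7a5* and *Slc3a2* were the 9 that were lower (7.17%). The median difference of the 34 genes was -0.14, beside -0.02 for all probes, and 24 of them were lower and 10 (29.4%) higher, beside 46.8% of all probes higher. Without WT 2 the median of the 34 was -0.07, beside -0.03 for all probes. It was -0.11 after quantile normalization and -0.08 after scaling to the median of each array, where that of all probes was 0.03 and 0.04. Missing the threshold does not show that the genes did not differ.

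The count of calls depended on βUCP2Tg 4 and WT 1. Without WT 1, 6 genes were called (17.6%, beside 10.8% of all probes): *Ddit3* and *Slc7a5* as lower, and *Nupr1*, *Slc7a3*, *Fgf21* and *Aldh1l2* as higher in βUCP2Tg islets. Without βUCP2Tg 4, *Nupr1* and *Fgf21* were called (5.88%, beside 4.18%). Without both arrays, which were chosen to be left out after the data had been seen, *Phgdh* joined the 6, as higher, and 7 genes were called (20.6%, beside 16.0%). The groups then did not overlap in 20 of the 34 genes (58.8%), against 45.1% of all probes.

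**Figure D1:**
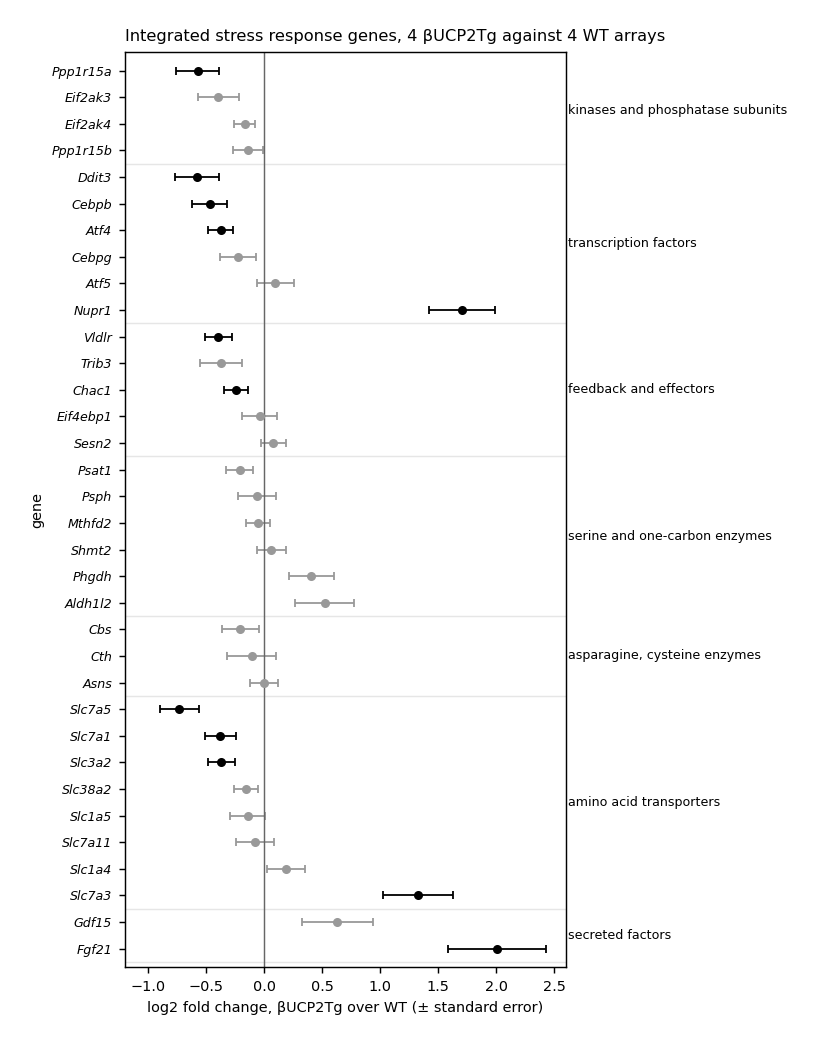
Differences between 4 βUCP2Tg and 4 WT arrays for the 34 genes, grouped by role, as log2 fold change with its standard error. Black points are the 12 genes whose groups do not overlap and grey points the other 22. *Fgf21*, *Nupr1* and *Slc7a3* lie far to the right (2.01, 1.70 and 1.32), and the black points to the left lie between -0.73 and -0.24.

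Among the sensors and the proteins that reverse the phosphorylation of eIF2, all 4 genes were lower in βUCP2Tg islets by their means. The groups did not overlap in 1 of them, beside 12.4% of all probes. *Ppp1r15a* encodes GADD34, the inducible subunit that brings a phosphatase to eIF2 and ends the response. It measured 4.50, 4.44, 4.39 and 4.50 in βUCP2Tg islets and 4.85, 5.61, 4.86 and 4.79 in WT islets. The βUCP2Tg arrays were close together and all below the WT arrays, of which WT 2 stood far above the other 3. The difference was -0.57 ± 0.18 (SE, n = 4 and 4, adjusted p = 0.120), or 1.49-fold lower, and without WT 2 it was -0.38. *Ppp1r15b*, the constitutive partner of the same phosphatase, differed by -0.14 (adjusted p = 0.519, 95% interval -0.43 to 0.15), and by -0.24 to -0.08 when 1 array was left out. *Eif2ak3*, the ER stress kinase PERK, differed by -0.39 (adjusted p = 0.207; -0.24 without WT 2) and *Eif2ak4*, the amino acid sensor GCN2, by -0.17 (adjusted p = 0.283), and in both the groups overlapped.

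Of the 6 transcription factors, *Atf4*, *Ddit3* and *Cebpb* were lower and *Nupr1* higher in βUCP2Tg islets with no overlap between the groups. Over all probes, 12.4% had no overlap. *Atf4*, the central factor of the response, measured 7.829, 7.875, 7.765 and 7.601 in βUCP2Tg islets and 7.980, 8.326, 8.129 and 8.134 in WT islets. Every βUCP2Tg array was below every WT array, although the gap between the groups, from βUCP2Tg 2 to WT 1, was narrow. The difference was -0.37 ± 0.11 (SE, adjusted p = 0.104), or 1.30-fold lower. It was -0.17 with overlapping groups after quantile normalization, and its second, dimmer probe differed by -0.33 with overlapping groups (adjusted p = 0.169). Since ATF4 is controlled mainly through translation of its mRNA, an array does not measure its activity.

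*Ddit3*, which encodes CHOP, the factor tied to cell death under lasting ER stress, measured 2.839, 2.918, 2.831 and 2.821 in βUCP2Tg islets and 3.005, 4.003, 3.391 and 3.322 in WT islets. The βUCP2Tg arrays spanned a narrow range just below WT 1, and WT 2 was again the highest. The difference was -0.58 ± 0.19 (SE, adjusted p = 0.127), or 1.49-fold lower, and it was -0.39 without WT 2. A second *Ddit3* probe gave -0.84 (adjusted p = 0.0917), also without overlap. *Cebpb*, a partner of ATF4, measured 3.95, 3.99, 4.12 and 3.90 against 4.13, 4.85, 4.41 and 4.42. The groups came close at βUCP2Tg 3 and WT 1, and the difference was -0.47 ± 0.15 (SE, adjusted p = 0.121).

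After scaling to the median of each array, the groups of *Atf4*, *Ddit3*, *Cebpb* and *Chac1* overlapped, with no change of direction. *Cebpg*, the C/EBP member that pairs with ATF4 on amino acid genes, differed by -0.23 with overlap (adjusted p = 0.387; -0.10 without WT 2), and its dimmer probe by -0.38 without overlap (adjusted p = 0.137). *Atf5*, a relative of ATF4 that is translated by the same mechanism, differed by 0.10 (adjusted p = 0.739, 95% interval -0.27 to 0.47), and by 0.01 to 0.22 when 1 array was left out.

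*Nupr1*, a stress-induced chromatin protein and a known ATF4 target, measured 6.21, 5.93, 5.89 and 5.31 in βUCP2Tg islets and 4.44, 4.68, 3.88 and 3.52 in WT islets. The groups were separated by a wide gap, with βUCP2Tg 1 the highest and βUCP2Tg 4 the lowest of the transgenic arrays. The difference was 1.70 ± 0.28 (SE, adjusted p = 0.0517, 95% interval 1.05 to 2.35). It was called under 8 of the 21 other settings tried, among them quantile normalization (1.79, adjusted p = 0.0460).

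A second *Nupr1* probe went the other way. A_55_P2924198, designed on the Ensembl transcript ENSMUST00000151105, measured -4.45, -4.48, -4.34 and -4.06 in βUCP2Tg islets and -3.59, -3.50, -3.58 and -3.69 in WT islets. It was 1.67-fold lower in βUCP2Tg islets (-0.74 ± 0.11, SE, adjusted p = 0.0456) and was called. The mean of both probes differed by 0.48 (adjusted p = 0.108). The brighter probe, A_51_P519251, was designed on the RefSeq transcript NM_019738. The first 30 of the 60 bases of each probe are shown because they tell the target sequences apart; no base is marked, and neither probe shared 20 bases with any other on the array.
A_51_P519251: caatggatacaggacatcacacccagcaat
A_55_P2924198: tttcagtatgtatgctgccactacctcctg
Where on the gene the second probe lies was not examined here.

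**Figure D2:**
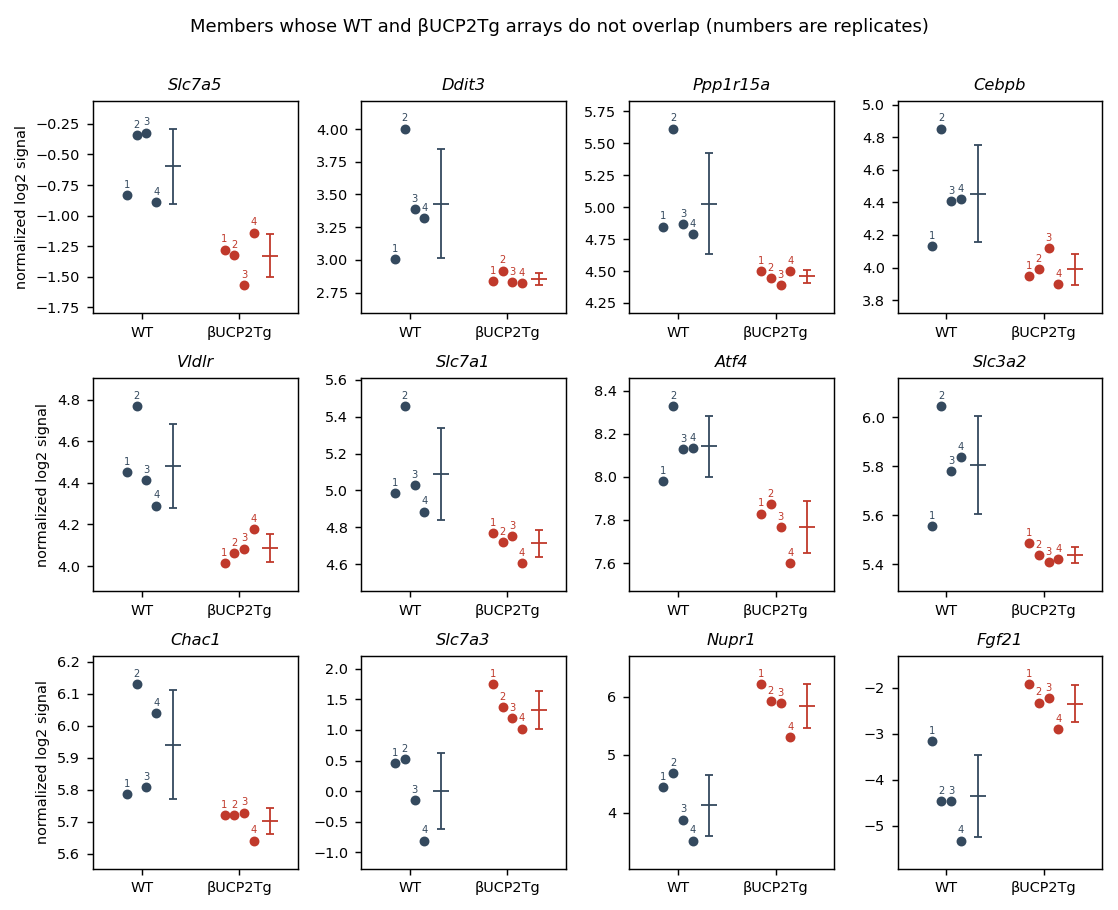
Normalized log2 signal of the 12 genes whose groups do not overlap, on each WT (dark) and βUCP2Tg (red) array, numbered by replicate. The dash and bar beside each group give its mean and SD (n = 4). The scale differs between panels. WT 2 is the highest WT array in 8 of the 9 genes that are lower in βUCP2Tg islets, and βUCP2Tg 1 the highest transgenic array in all 3 that are higher.

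Of the 5 genes of feedback and effector proteins, *Chac1* and *Vldlr* were lower in βUCP2Tg islets without overlap, as were 7.17% of all probes. *Trib3*, a pseudokinase that ATF4 and CHOP induce and that restrains them, measured 6.12, 6.09, 5.93 and 5.76 in βUCP2Tg islets and 6.41, 6.81, 5.98 and 6.17 in WT islets. WT 3 lay within the range of the βUCP2Tg arrays, and the difference of -0.37 ± 0.18 (SE) had an adjusted p of 0.241 and was -0.22 without WT 2. *Chac1*, which degrades glutathione, measured 5.72, 5.72, 5.73 and 5.64 against 5.79, 6.13, 5.81 and 6.04. The groups came near each other at βUCP2Tg 3 and WT 1, and the difference was -0.24 ± 0.10 (SE, adjusted p = 0.199). *Vldlr*, a lipoprotein receptor that ATF4 is known to induce, measured 4.02, 4.06, 4.08 and 4.18 against 4.45, 4.77, 4.41 and 4.29. All βUCP2Tg arrays were below all WT arrays, with a difference of -0.40 ± 0.12 (SE, adjusted p = 0.107), and the second *Vldlr* probe gave -0.44 (adjusted p = 0.0702), also without overlap. After quantile normalization the groups of *Chac1* and *Vldlr* overlapped, with differences of -0.11 and -0.31. *Sesn2*, which holds back the growth kinase mTORC1, differed by 0.08 (adjusted p = 0.676, 95% interval -0.17 to 0.33) and *Eif4ebp1*, a brake on cap-dependent translation, by -0.04 (adjusted p = 0.894, 95% interval -0.38 to 0.31).

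In none of the 6 enzymes of serine synthesis and mitochondrial one-carbon metabolism did the groups separate, and their median difference was 0.005. *Phgdh*, *Psat1* and *Psph* catalyse the 3 steps from a glycolytic intermediate to serine. They differed by 0.41, -0.21 and -0.06, with adjusted p of 0.233, 0.299 and 0.847, and *Psat1* by -0.13 without βUCP2Tg 4. The *Phgdh* probe shared a run of at least 20 bases with 1 other probe on the array. The one-carbon enzymes *Shmt2* and *Mthfd2* differed by 0.06 and -0.05, with 95% intervals of -0.22 to 0.34 and -0.29 to 0.18, and a second *Shmt2* probe gave -0.13 (adjusted p = 0.530).

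*Aldh1l2*, the mitochondrial enzyme that oxidizes formyl-tetrahydrofolate, differed by 0.52 ± 0.26 (SE, adjusted p = 0.241). It measured 2.19, 1.88, 1.91 and 1.56 in βUCP2Tg islets and 2.13, 1.19, 1.14 and 1.00 in WT islets. WT 1 alone among the WT arrays lay within the βUCP2Tg range, and without it the difference was 0.78. Another probe on the same transcript gave 0.57 (adjusted p = 0.132), while the probe A_55_P2618431 on a different transcript gave -0.60 (adjusted p = 0.120). The mean of all 3 probes differed by 0.17.

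**Figure D3:**
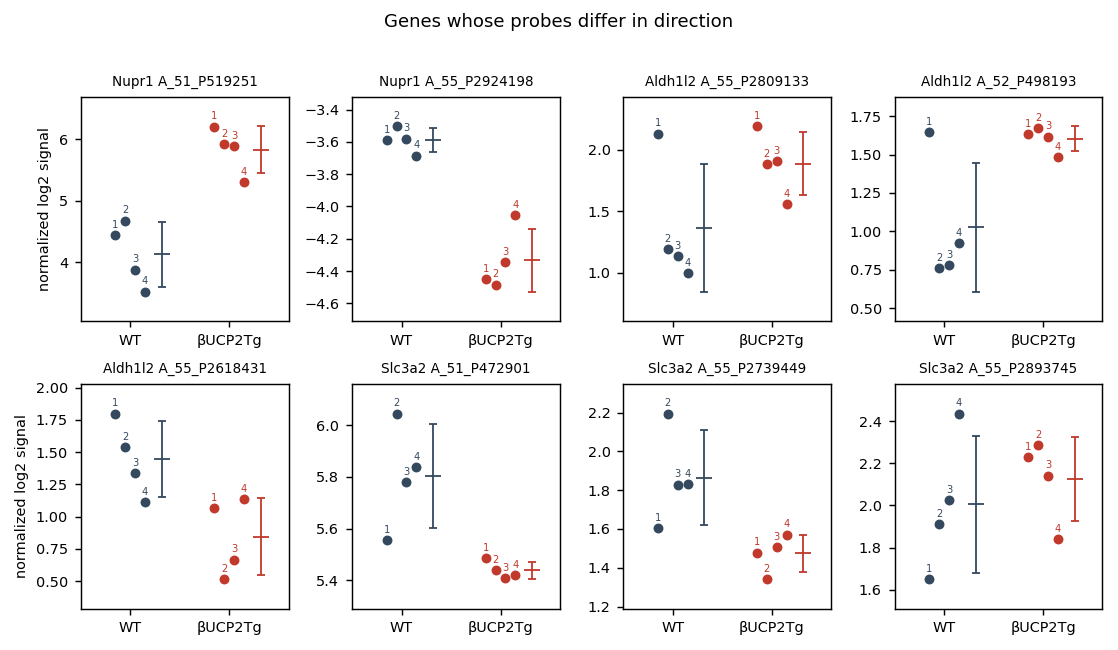
Normalized log2 signal on each WT (dark) and βUCP2Tg (red) array for every probe of *Nupr1*, *Aldh1l2* and *Slc3a2*, with mean and SD (n = 4). The scale differs between panels, and levels of different probes are not comparable. *Nupr1* A_55_P2924198 and *Aldh1l2* A_55_P2618431 are lower in βUCP2Tg islets (-0.74 and -0.60) where the other probes of these genes are higher.

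*Asns*, asparagine synthetase and the classical amino acid response gene, measured 6.25, 6.25, 6.04 and 5.96 in βUCP2Tg islets and 6.30, 6.23, 5.91 and 6.08 in WT islets. The arrays of both groups were mixed throughout the range. The difference was -0.003 ± 0.12 (SE, adjusted p = 0.992), and its 95% interval ran from -0.28 to 0.28. A second *Asns* probe gave 0.11 (adjusted p = 0.572). *Cbs* and *Cth*, the enzymes that turn homocysteine into cysteine, differed by -0.20 and -0.11 (adjusted p = 0.441 and 0.780). Without WT 1 the *Cbs* difference was -0.10, and without WT 3 it was -0.31. In *Cth*, which was dim, the βUCP2Tg arrays ranged from -3.60 to -2.55 and the WT arrays from -3.11 to -2.93.

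In 4 of the 8 amino acid transporters the groups did not overlap, beside 12.4% of all probes. Of these 4, *Slc7a5*, *Slc7a1* and *Slc3a2* were lower and *Slc7a3* higher in βUCP2Tg islets. *Slc7a5* and *Slc3a2* encode the light and heavy chain of the transporter for leucine and other large neutral amino acids. *Slc7a5* measured -1.28, -1.32, -1.57 and -1.14 in βUCP2Tg islets and -0.83, -0.34, -0.32 and -0.89 in WT islets. Every βUCP2Tg array was below every WT array, and the difference of -0.73 ± 0.17 (SE, adjusted p = 0.0823) was a 1.66-fold lower signal. *Slc3a2* measured 5.48, 5.44, 5.41 and 5.42 against 5.56, 6.04, 5.78 and 5.84. The groups lay close together at βUCP2Tg 1 and WT 1, and the difference was -0.37 ± 0.11 (SE, adjusted p = 0.114) and -0.22 after quantile normalization.

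A second *Slc3a2* probe gave -0.39 without overlap. Its remaining probe gave 0.12 (adjusted p = 0.705) and shared a run of at least 20 bases with 3 probes not labelled as *Slc3a2*. With the mean of the *Slc3a2* probes the difference was -0.21 and the groups overlapped.

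*Slc7a1* and *Slc7a3* both encode carriers of arginine and other cationic amino acids, and they differed in opposite directions. *Slc7a1* measured 4.77, 4.72, 4.75 and 4.61 in βUCP2Tg islets and 4.99, 5.46, 5.03 and 4.88 in WT islets, a difference of -0.38 ± 0.13 (SE, adjusted p = 0.140). *Slc7a3* measured 1.75, 1.37, 1.19 and 1.02 in βUCP2Tg islets and 0.46, 0.52, -0.14 and -0.81 in WT islets, a difference of 1.32 ± 0.30 (SE, adjusted p = 0.0823), or 2.50-fold higher. In *Slc7a3* the WT arrays spread more widely than the βUCP2Tg arrays, yet none reached them.

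The groups of the other 4 transporters overlapped. *Slc7a11*, the cystine carrier, differed by -0.08 (adjusted p = 0.797) and *Slc38a2*, a carrier of small neutral amino acids, by -0.16 (adjusted p = 0.369). The other tested *Slc7a11* probes gave -0.62 and 0.03 (adjusted p = 0.425 and 0.935). *Slc1a4* and *Slc1a5*, which carry alanine, serine and cysteine or glutamine, differed by 0.19 and -0.14 (adjusted p = 0.489 and 0.587). Without WT 2 the differences of *Slc38a2*, *Slc1a4* and *Slc1a5* were -0.08, 0.31 and -0.04, and without WT 1 those of *Slc1a4* and *Slc1a5* were 0.06 and -0.28. The *Slc1a4* probe shared a run of at least 20 bases with 6 other probes. In *Slc1a5* the 4 βUCP2Tg arrays agreed within -1.30 to -1.24, while the WT arrays ranged from -1.54 to -0.82.

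Both secreted factors were higher in βUCP2Tg islets by their means. *Fgf21*, a metabolic hormone, had the largest difference of the 34 genes and, in WT islets, the lowest mean signal of them (-4.35). It measured -1.93, -2.33, -2.23 and -2.90 in βUCP2Tg islets and -3.16, -4.47, -4.45 and -5.32 in WT islets. The groups did not overlap, but WT 1 came close to βUCP2Tg 4. The difference was 2.01 ± 0.42 (SE, adjusted p = 0.0723), or 4.02-fold higher, with a 95% interval of 1.04 to 2.97. With normexp background correction and its offset, the difference was 0.79. *Gdf15*, a stress cytokine, measured 2.34, 2.31, 2.18 and 1.43 in βUCP2Tg islets and 0.98, 2.21, 1.42 and 1.13 in WT islets. βUCP2Tg 4 fell among the WT arrays and WT 2 among the βUCP2Tg arrays, and the difference of 0.63 ± 0.30 (SE) had an adjusted p of 0.234.

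**Figure D4:**
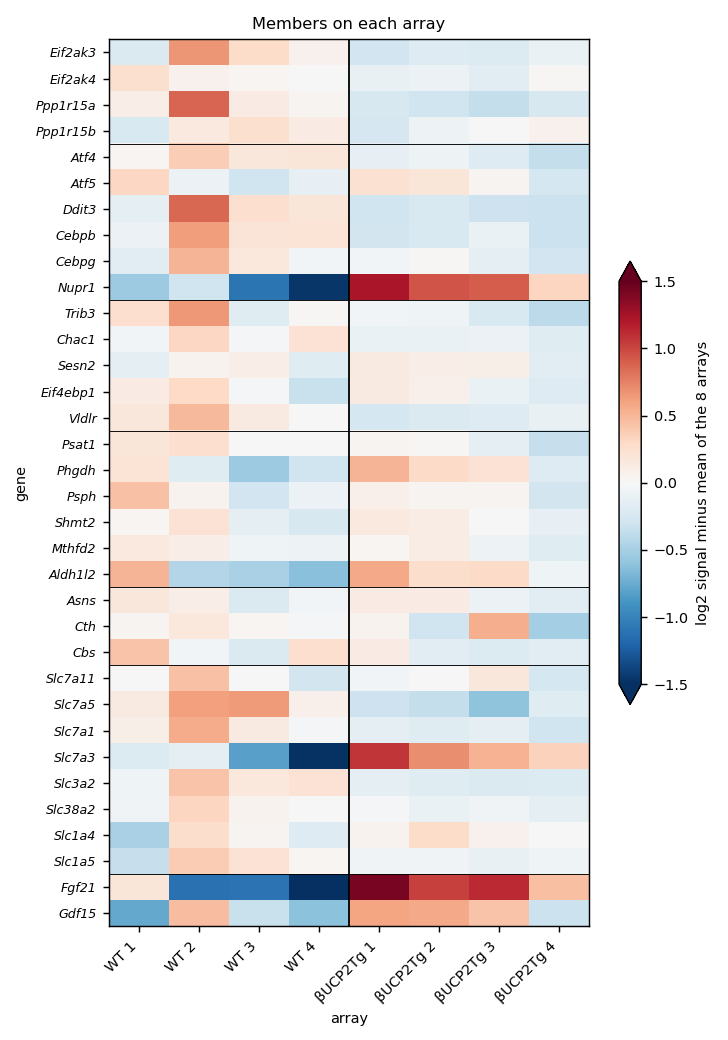
Log2 signal of each of the 34 genes on each array minus its mean over the 8 arrays, with genes in the order of their roles and WT arrays on the left. The colour scale ends at -1.5 and 1.5. WT 2 holds the highest of the 8 values in 17 genes and βUCP2Tg 4 the lowest in 11. *Nupr1*, *Slc7a3* and *Fgf21* are higher on every βUCP2Tg array than on any WT array.

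Across the list, the spread was larger in WT islets in 31 of the 34 genes, with a median SD of 0.29 in WT and 0.14 in βUCP2Tg islets, beside 0.24 and 0.17 over all probes. WT 2 held the highest of the 8 values in 17 genes, beside 18% of all probes, and βUCP2Tg 4 held the lowest in 11, beside 9.28% of all probes. Over the 34 genes the median deviation from the mean of the 8 arrays was 0.28 on WT 2 and between -0.02 and 0.04 on the other WT arrays. It was 0.004, -0.03, -0.09 and -0.18 on the βUCP2Tg arrays.

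Further genes of the pathway, outside the 34, were counted from named lists. No gene was called among the 14 of the eIF2 kinases, eIF2 and eIF2B, the 12 cytosolic aminoacyl-tRNA synthetases, the 15 other ATF4 targets and the 10 genes of the other branches of the unfolded protein response. At an unadjusted p under 0.05 there were 2, 2, 6 and 3 genes, where 25.2% of all probes passed it. Their median differences were 0.004, -0.08, 0.03 and -0.24. In the last list 9 of 10 genes were lower in βUCP2Tg islets, where 46.8% of all probes were higher.

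In the first of these lists the groups did not overlap in 2 of the 14 genes, beside 12.4% of all probes. These were *Eif2ak1*, the haem-sensing kinase, and *Eif2s2*, the β subunit of eIF2. *Eif2ak1* was higher by 0.34 (adjusted p = 0.113) and *Eif2s2* lower (-0.22, adjusted p = 0.199). Among the 15 other ATF4 targets the groups did not overlap in 2, *Ddit4* and *Stc2*, again beside 12.4% of all probes. *Ddit4*, an inhibitor of mTORC1 that hypoxia also induces, measured 4.07, 3.57, 3.80 and 4.37 in βUCP2Tg islets and 4.42, 5.33, 5.03 and 5.19 in WT islets (-1.04, adjusted p = 0.0823). *Stc2*, a secreted glycoprotein, measured -3.67, -3.87, -4.23 and -3.39 in βUCP2Tg islets and -5.64, -4.23, -4.71 and -7.42 in WT islets (1.71, adjusted p = 0.145). Its groups all but touched at βUCP2Tg 3 and WT 2, and WT 4, far below the other arrays, was the one on which it was not well above background. *Atf3*, a stress-induced relative of ATF4, was lower (-1.504) with overlap (adjusted p = 0.185). No group separated among the synthetases. There the 3 largest differences were those of *Wars*, *Iars* and *Cars*. *Wars* charges the tRNA of tryptophan and was higher by 0.27 (adjusted p = 0.171). *Iars* and *Cars* charge those of isoleucine and cysteine, and they differed by -0.25 and -0.21 (adjusted p = 0.171 and 0.344). No group separated in the other branches of the unfolded protein response either, where *Dnajb9*, *Sdf2l1* and *Edem1*, which act in folding and clearing ER proteins, differed most, by -0.51, -0.34 and -0.29 (adjusted p = 0.125, 0.130 and 0.505).

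The same arrays differed in other genes, whose part in the results above was not tested. In bulk islets, fewer cells of a type and less RNA per cell cannot be told apart. Summed over 15 hypoxia response genes, the signal relative to the 75th percentile ranged from 113.9 to 209.5 in βUCP2Tg islets, highest on βUCP2Tg 4, and from 165.5 to 293.8 in WT islets, lowest on WT 1. Of these 15 genes, 12 had an unadjusted p under 0.05, all lower in βUCP2Tg islets, beside 15.2% of all probes. None was called. The sum over 19 acinar genes ranged from 13.3 to 251.6 in βUCP2Tg and from 21.0 to 405.4 in WT islets. All 19 were lower by their means, where 46.8% of all probes were higher, and none was called. Of 11 macrophage genes, 8 were lower and 3 higher by their means in βUCP2Tg islets. In their sum the bright genes weigh most. It ranged from 18.3 to 22.9 in βUCP2Tg islets and from 24.5 to 30.45 in WT islets, without overlap. Gene by gene, the groups did not overlap in 2 of the 11, beside 12.4% of all probes. Of these 2, *Cd14*, a receptor of bacterial lipopolysaccharide, was called as lower (-2.10, adjusted p = 0.0480). *C1qa*, a complement subunit, was higher without overlap (0.66, adjusted p = 0.0823), and the other 2 that were higher, *Aif1* and *Lyz2*, differed by 0.52 and 0.09 with overlap. The sum over 10 β-cell genes, all of them measured, ranged from 1191 to 1585 in βUCP2Tg islets and from 1516 to 1575 in WT islets.

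**Figure D5:**
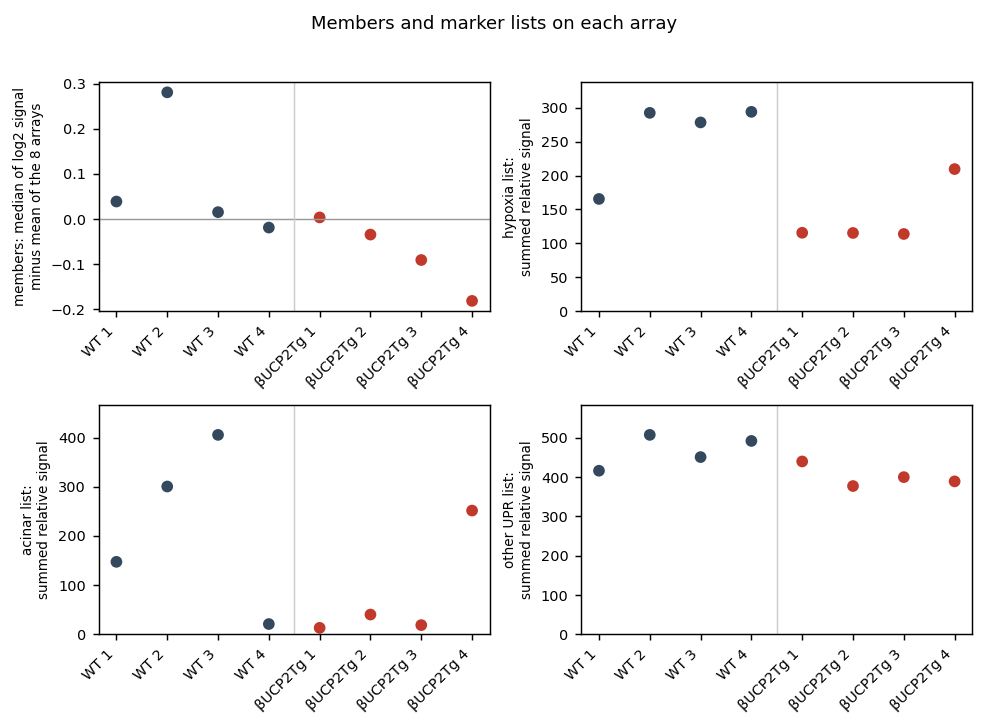
The median deviation of the 34 genes (log2) and the summed signal of 3 other gene lists (relative to the 75th percentile of each array) on each WT (dark) and βUCP2Tg (red) array; UPR is the unfolded protein response. WT 2 stands highest for the 34 genes at 0.28. βUCP2Tg 4 and WT 1 lie closest to the opposite group in the hypoxia list (209.5 and 165.5).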

How the data were processed

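RNA of 4 βUCP2Tg and 4 WT islet samples was labelled with Cy3 and hybridised to one-colour Agilent mouse arrays. The deposited scanner files hold the intensity of each spot after the authors' background subtraction in Agilent Feature Extraction (version 9.1 in the submitters' processing notes, 10.7.3.1 in the file headers, with the mm9 build). The authors' GeneSpring table holds log2 normalized values, from which the brightest probe per gene was taken. Its deposited fold change ratio, log2 fold change and p-value columns are the authors' own comparison and were not used. All columns of values were mapped to samples.

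Control and outlier spots (48 to 106 per array) were excluded, the log2 processed intensity was scaled by subtracting each array's 75th percentile, and spots of a probe were averaged. Probes well above background on at least 4 of 8 arrays were compared with limma 3.58.1 (lmFit, eBayes; R 4.3.3), and p was adjusted after Benjamini and Hochberg over all 35363 probes. The comparison was tested on simulated data. Motifs and figures used Python 3.11.15 and matplotlib 3.10.9. Probe coordinates were not analysed here, and promoter coordinates are those of GRCm38.p6.

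The 34 genes and all lists were chosen with earlier results of these data known. Values on every array are given for *Atf4*, *Ddit3*, *Ppp1r15a*, *Trib3*, *Chac1* and *Asns*, for genes of the 34 without overlap and for the 5 largest differences among the 34. Those of *Aldh1l2*, *Ddit4*, *Stc2* and the second *Nupr1* probe were added after they were seen. From the further lists, genes without overlap were named, otherwise the 3 largest differences, and *Atf3*, *Cd14*, *C1qa*, *Aif1* and *Lyz2* were added after their values were seen. The alternatives were other filters, scalings (quantile, median), normexp with an offset of 50 on the median pixel signal, the deposited log2 values, outlier spots kept, an intensity trend, the mean of probes, no fold limit, a replicate block, and fits without single arrays. The number of arrays limits the precision.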

Additional observations from a re-analysis of the deposited data

Results flagged for a closer look

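In 6 of the 68 groups of 4 arrays examined (34 genes in each genotype), a single array lay far from the other 3: the gap to the nearest of them, as a share of the group's whole range, exceeded Dixon's 95% limit. Chance alone gives about 1 in 20 such groups, or 3.4 of 68. In WT islets, *Ppp1r15a* was far higher on WT 2 (5.61, against 4.79 to 4.86 on the other 3 arrays, a gap of 0.907 of the range), and *Aldh1l2* was far higher on WT 1 (2.13, against 1.00 to 1.19, 0.831). In βUCP2Tg islets, βUCP2Tg 4 was below the other 3 arrays by this measure in *Chac1* (5.64, against 5.72 to 5.73, 0.915), in *Psph* (2.998, against 3.31 to 3.35, 0.898) and in *Sesn2* (3.05, against 3.29 to 3.34, 0.839). The *Chac1* gap was a large share of a small range, with an SD of 0.042 in βUCP2Tg islets. *Cbs* was far higher on βUCP2Tg 1 (3.43, against 3.09 to 3.15, 0.8292).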

How the results depend on the processing

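Of 680 results of single genes under an alternative, 630 kept their direction and their side of the threshold, 23 became called and 27 reversed, and 27 of the 34 genes reversed under none. Instead of 0, the genes called numbered 1 (*Nupr1*, 2.94% of the 34) with the filter at all 8 arrays, quantile normalization, the median of each array or an intensity trend (0.748%, 0.385%, 0.424% and 1.07% of all probes), 4 with normexp (*Nupr1*, *Slc7a5*, *Slc7a3*, *Fgf21*; 11.8%, beside 2.31%), 0 to 6 when 1 array was left out, and 7 without βUCP2Tg 4 and WT 1. The genes without overlap numbered 7 with quantile normalization (20.6%, beside 12.6% of all probes; without *Atf4*, *Cebpb*, *Chac1*, *Vldlr* and *Slc7a1*) and 8 with the median (23.5%, beside 10.5%). They numbered 20 without these 2 arrays (58.8%, beside 45.1%) and 12 to 17 when 1 array was left out (35.3% to 50%, beside 13.6% to 30% of all probes). Leaving out arrays can only keep or raise this count, so that these counts say nothing of its stability. The median difference ranged from -0.16 to -0.07 when 1 array was left out, with the value nearest 0 without WT 2. The reversed values were those of genes near 0. *Asns* was 0.120 with quantile normalization, 0.0578 with the median, 0.0903 with normexp, 0.0141 with the deposited values, 0.00214 with outlier spots kept, 0.0513 with the mean of probes, 0.111 without βUCP2Tg 4 and WT 1, and -0.0772 to 0.0545 when 1 array was left out. *Eif4ebp1* was 0.0458, 0.0223 and 0.0540 with quantile normalization, the median and without these 2 arrays, and -0.156 to 0.0561 when 1 was left out. *Psph* was 0.00134 with the median, 0.157 without the 2 arrays, and -0.164 to 0.0754. *Mthfd2* was 0.00746 with the median and 0.0371 without the 2 arrays. *Shmt2* was -0.0355 with the mean of probes and -0.0092 to 0.146. *Cth* was 0.0410 without the 2 arrays and -0.305 to 0.0438, and *Slc7a11* was -0.184 to 0.0565. The causes were not tested.

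Against 145 probes called over the whole array, there were 136 with quantile normalization, 150 with the median, 21 without a filter, 38 with the filter at 1 array, 237 at all 8, 816 with normexp, 379 with an intensity trend, 5486 without βUCP2Tg 4 and WT 1, and 8 to 3759 when 1 array was left out, with 1467 without βUCP2Tg 4 and 3759 without WT 1. With the replicate block, 14 probes and 0 of the 34 genes were called, with 15 of the 34 at an unadjusted p under 0.05. Arrays of the same number correlated by 0.437, -0.0466, -0.00864 and -0.241 in their deviations from the group means, and only number 1 correlated best with its own number, so that the samples share a number and no pairing was used. All 34 probes were well above background on every array, so that none has only a bound, and the 4 arrays per group limit the precision.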
